A study of Schmidtea mediterranea with 6 samples.

Results

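The most abundant transcripts of control X1 cells were chosen by their level in the 3 gfp(RNAi) libraries, as the genes that averaged at least 1000 CPM there. CPM is the reads of a gene per 1000000 reads assigned to genes in the same library. The limit was passed by 135 genes, and the stem cell genes smedwi-2, smedwi-3 and vasa-1 were left out, which gave 132 of 30917 gene models, 0.427% of all. The level in the gfp(RNAi) libraries therefore chose these genes, and their levels there are a description. All 132 passed the filter on low counts and were among the 14700 genes tested. RNA was sequenced from X1 cells of the asexual planarian Schmidtea mediterranea, the Hoechst-sorted, irradiation-sensitive fraction of cycling cells that holds the neoblasts, the stem cells of the animal. The exoc3(RNAi) animals had received double-stranded RNA against Smed-exoc3, a subunit gene of the exocyst, by injection. The gfp(RNAi) animals had received double-stranded RNA against gfp, which has no match in the planarian genome. All animals were 5 to 5.5 mm long and starved, received injections on 3 consecutive days and again 12 days later, and gave 3 libraries of sorted cells per group, which the study describes as biological replicates.

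A cell that divides often spends much of its mRNA on the machinery that makes proteins. Ribosomal proteins form the large and small subunits of the ribosome together with ribosomal RNA, elongation factors move it along the mRNA, poly(A)-binding protein coats the tail of the mRNA, and chaperones fold the new chains. Planarian neoblasts are also known for abundant RNA-binding proteins and for the RNA-rich granules called chromatoid bodies.

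The libraries held 37525894, 28897363 and 34310420 assigned reads in exoc3(RNAi), against 32852796, 31390710 and 33805416 in gfp(RNAi). At this depth even the lowest of the 132 genes in any library had 23337 reads, so counting error was small. Smed-exoc3 itself (SMESG000022604.1) had 32.3, 31.7 and 43.5 CPM in the exoc3(RNAi) libraries, against 68.4, 72.9 and 71.6 CPM in the gfp(RNAi) libraries, a log2 fold change -1.04 (SE 0.09, edgeR adjusted p = 5.7e-07). Levels were read for 5 neoblast markers, smedwi-2, smedwi-3, vasa-1, cyclin B and soxP-1. Each was detected, 4 of them fell and cyclin B rose, and their summed level was 7593 to 8241 CPM in exoc3(RNAi) libraries and 9670 to 9821 CPM in gfp(RNAi) libraries. No library of another cell fraction was compared, so their detection does not test the X1 label. A list of 20 epidermal progenitor genes, descendants that the gate could hold, summed to 1564 to 1601 CPM in exoc3(RNAi) and 3031 to 3086 CPM in gfp(RNAi). All 20 fell and none was at 0 in every library, but the study selected this list because its genes changed in these libraries. What either shift contributes to the values below was not tested, and in bulk libraries fewer cells of a type and less RNA per cell cannot be told apart.

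The 132 genes held a large share of all reads. It was 36.4, 36.3 and 36.6% in the exoc3(RNAi) libraries, against 35.7, 35.1 and 35.2% in the gfp(RNAi) libraries. The groups did not overlap, and the means were 36.4 ± 0.173% in exoc3(RNAi) and 35.3 ± 0.349% in gfp(RNAi) (SD, n = 3 each), a difference of 1.08 percentage points. This rise depended on scaling. Against the TMM effective library size, which corrects totals for the composition of the library, the same reads made up 35.9, 35.7 and 35.7% in exoc3(RNAi) and 36.6, 35.6 and 35.8% in gfp(RNAi), so that the groups overlapped and the difference was -0.239 points. TMM scaling shifts every log2 fold change by 0.05 downwards relative to plain CPM. For this reason log2 fold changes are given below from the fit with TMM. Levels, shares of reads and sums of CPM below are given without TMM. To reach 25% of the reads took 57 genes in each exoc3(RNAi) library and 56 to 58 genes in the gfp(RNAi) libraries. For 50% of the reads 334 to 340 genes were needed in exoc3(RNAi) libraries and 346 to 361 in gfp(RNAi) libraries.

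The highest members together held a smaller share in exoc3(RNAi). The 10 most abundant genes together made up 9.16, 9.17 and 9.19% in the exoc3(RNAi) libraries, against 10.2, 9.99 and 9.98% in the gfp(RNAi) libraries. The first 20 held 13.6 ± 0.0234% in exoc3(RNAi) and 14.7 ± 0.156% in gfp(RNAi) (SD, n = 3 each). Members that gained CPM numbered 95 and together gained 28664 CPM, while the 37 that lost CPM fell by 17892 CPM in sum. The net change was 10772 CPM. These sums, and those by role, are in plain CPM and depend on scaling. Against the TMM effective library size the shares of the members overlapped between the groups. By role, ribosomal protein genes added 12338 CPM and genes without a description added 9133 CPM, whereas chaperones fell by 7380 CPM, translation factors fell by 3638 CPM, and RNA-binding proteins and helicases fell by 1729 CPM. HSPA8, elongation factor 2 and PABPC4 together fell by 9170 CPM.

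**Figure D1:**
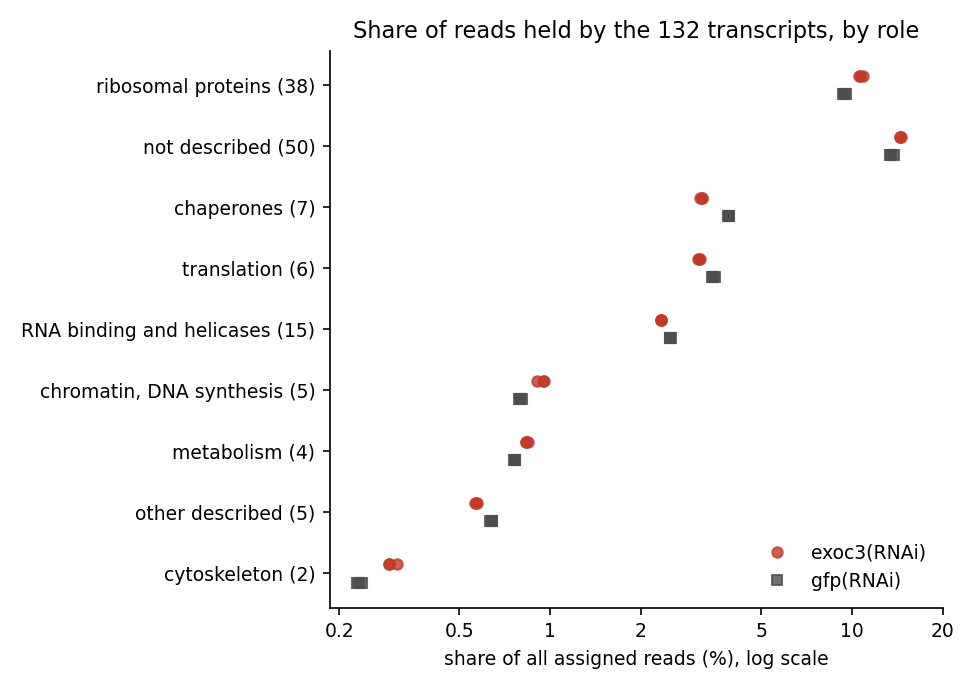
Share of all assigned reads held by each role group (percent, log scale) in the 3 exoc3(RNAi) libraries (red circles, upper) and the 3 gfp(RNAi) libraries (grey squares, lower), with the number of genes in brackets. Every group's libraries separated, with ribosomal proteins at 10.6 to 10.8% in exoc3(RNAi) and 9.35 to 9.57% in gfp(RNAi), and chaperones at 3.13 to 3.20% in exoc3(RNAi) and 3.90 to 3.92% in gfp(RNAi).

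Roles were assigned from the names and domains that the study's tables pair with these identifiers, which describe 82 of the 132 genes. These tables mostly list genes that changed in the study's own test or belong to published lists, so a described gene is more likely to have changed, and the remaining 50 genes are known here only by identifier. Levels in CPM also rise with transcript length, which was not analysed here, so the order of genes is an order of reads and not of molecules. Reads that fitted several places were not counted, and any gene with a close copy is therefore uncertain in level. Histone, Hsp70, elongation factor and ribosomal protein genes belong to multigene families in many animals, and copies in this genome were not analysed here.

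In edgeR's quasi-likelihood test, with Benjamini-Hochberg adjustment over all genes tested, 71 of the 132 genes were higher and 32 lower in exoc3(RNAi) at an adjusted p under 0.05. That was 78.0% of them, where 53.0% of all tested genes were called. Among the 1611 tested genes of 100 to under 1000 CPM in gfp(RNAi) the share was 76.7%, close to that of the 132 genes. The directions were less alike. Of the 132 genes 53.8% were higher and 24.2% lower, compared with 25.8% and 27.1% of all genes tested and with 26.6% and 50.1% of the genes in the class below. Outside the ribosomal role 39.4% of 94 members were higher and 29.8% lower, with a median log2 fold change of 0.04. The median log2 fold change was 0.09 over the 132 genes, 0.02 over all genes tested and -0.10 over the class below. Changes were small, from -0.63 to 0.42, with a median size of 0.15 against 0.25 over all genes tested. A size of 0.5 was exceeded by 5 of the 132 genes, 3.79%, compared with 20.1% of all genes tested and 13.8% of the class below. The libraries of the groups did not overlap in CPM for 116 of the 132 genes, 87.9%, where 61.9% of all tested genes and 81.2% of the class below did not overlap. With library size alone in place of TMM 85 members were higher and 24 lower, where 31.6% and 23.6% of all tested genes were. When a fold above 1.2 was required, 6 remained higher and 16 lower. That was 16.7% of the members, fewer than the 21.4% of all tested genes called at this setting, 8.47% higher and 13.0% lower.

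**Figure D2:**
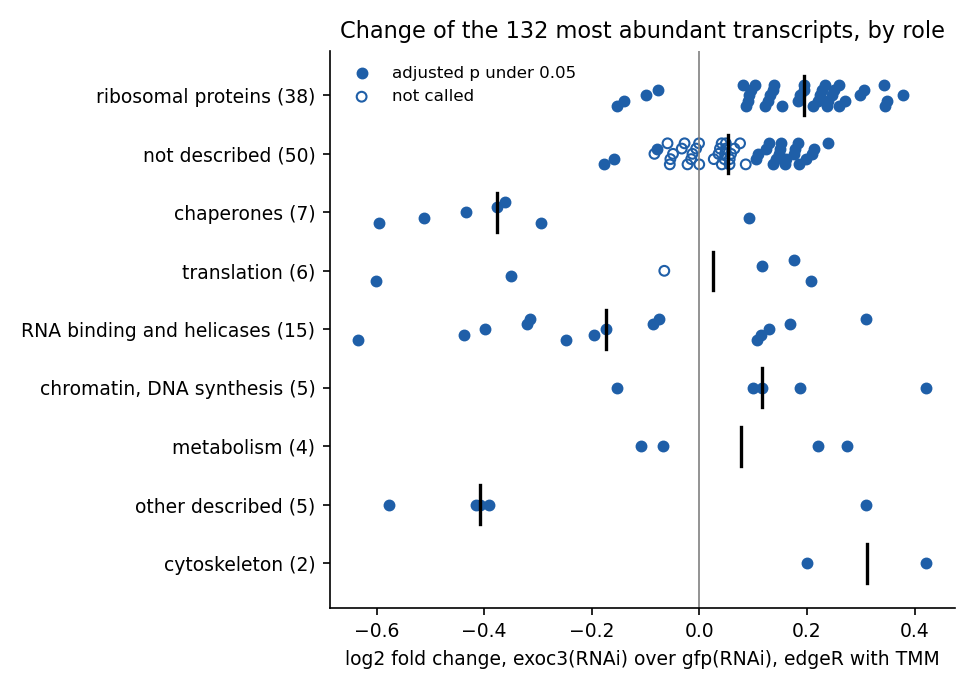
Log2 fold change of each of the 132 genes, exoc3(RNAi) over gfp(RNAi), by role group. Filled circles passed an adjusted p under 0.05, open circles did not, and vertical bars are medians. Ribosomal proteins lie mostly above 0 with a median of 0.19, and chaperones mostly below 0 with a median of -0.38.

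Ribosomal protein genes were the largest described group, and most of them rose. Of 38 members 34 were higher and 4 lower, with a median log2 fold change of 0.19. All 17 genes of the small subunit were higher, with log2 fold changes of 0.08 to 0.35. Of 21 genes of the large subunit 17 were higher, up to 0.38, and 4 were lower. The group held 10.6, 10.6 and 10.8% in the exoc3(RNAi) libraries, against 9.57, 9.35 and 9.44% in the gfp(RNAi) libraries. The libraries of the groups did not overlap for any of the 38 genes. That also held for 95.1% of the 82 described members and for 61.9% of all genes tested. All 38 were called, where 98.8% of the described members and 53.0% of all genes tested were. Without 1 library at a time 29 to 34 were higher and 3 to 4 lower.

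The 4 genes that fell were RPL3, RPL4, RPL5 and RPL7A, the 4 ribosomal protein genes with the highest CPM in gfp(RNAi). CPM rises with transcript length, which was not analysed here, so this is an order of reads. RPL3 (SMESG000022732.1), a protein at the catalytic core of the large subunit, had 7515, 7621 and 7481 CPM in the exoc3(RNAi) libraries, against 8188, 7932 and 7905 CPM in the gfp(RNAi) libraries, a log2 fold change -0.14 (SE 0.03, edgeR adjusted p = 0.0009). RPL4 (SMESG000009479.1), which lines the exit tunnel of the large subunit, had 4741, 4818 and 4838 CPM in the exoc3(RNAi) libraries, against 5194, 5117 and 5124 CPM in the gfp(RNAi) libraries, a log2 fold change -0.15 (SE 0.03, edgeR adjusted p = 0.00024). RPL5 (SMESG000004748.1), which binds 5S ribosomal RNA, had a log2 fold change of -0.10 (SE 0.03), and RPL7A (SMESG000020535.1) of -0.08 (SE 0.03). RPL5 and RPL7A were called neither with library size alone nor after a filter of 10 CPM in 3 libraries, which was followed by new TMM factors. Their edgeR adjusted p-values with library size alone were 0.12 and 0.40, while RPL3 and RPL4 remained lower. RPL7A was also not called without exoc3(RNAi) replicate 2 or gfp(RNAi) replicate 3 (edgeR adjusted p = 0.056 and 0.072).

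The largest increases among these 38 genes were those of RPLP2, RPS15AA, RPL27A and RPS23. RPLP2 (SMESG000009232.1), an acidic protein of the stalk that binds elongation factors, had 1384, 1338 and 1440.5 CPM in the exoc3(RNAi) libraries, against 1003, 1036 and 1047 CPM in the gfp(RNAi) libraries, a log2 fold change 0.38 (SE 0.03, edgeR adjusted p = 4.7e-07). Each exoc3(RNAi) library lay above each gfp(RNAi) library. RPS15AA (SMESG000041069.1), a small subunit protein, had 2039.7, 2075 and 2140.3 CPM in the exoc3(RNAi) libraries, against 1646, 1559 and 1533 CPM in the gfp(RNAi) libraries, a log2 fold change 0.35 (SE 0.03, edgeR adjusted p = 1.9e-06). RPL27A (SMESG000034631.1) had 3754, 3653 and 3932 CPM in the exoc3(RNAi) libraries, against 2949, 2769 and 2890.0 CPM in the gfp(RNAi) libraries, a log2 fold change 0.34 (SE 0.03, edgeR adjusted p = 2.2e-06). RPS23 (SMESG000017264.1), which lies at the decoding centre of the small subunit, had 1947, 1916 and 2029.6 CPM in the exoc3(RNAi) libraries, against 1540.3, 1461 and 1477 CPM in the gfp(RNAi) libraries, a log2 fold change 0.34 (SE 0.03, edgeR adjusted p = 1.5e-06). In all 4 genes exoc3(RNAi) replicate 3 was the highest library.

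Across the 38 genes the log2 fold change was lower where the level was higher. Spearman's rho was -0.68 with the gfp(RNAi) level, -0.62 with the exoc3(RNAi) level and -0.65 with the mean of all 6 libraries. These points share the same 6 libraries, and the level enters the fold change, so the values are a description. Transcript length also enters CPM, so abundance and length cannot be told apart here. Over the 94 other members rho with the mean of the 6 libraries was 0.01. The study's annotation names a further 17 cytosolic ribosomal protein genes below the limit, at 33.4 to 956 CPM in gfp(RNAi), and all 17 were higher, with a median log2 fold change of 0.29 and a range of 0.20 to 0.82. Of all 55 annotated genes 51 were thus higher and 4 lower. The annotation mostly lists genes that changed in these libraries, so unchanged ribosomal protein genes could be missing from it. That all 55 were called therefore follows in part from the list. The lowest in level, described as ribosomal protein SA (SMESG000016079.1), had the largest change, 0.82.

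**Figure D3:**
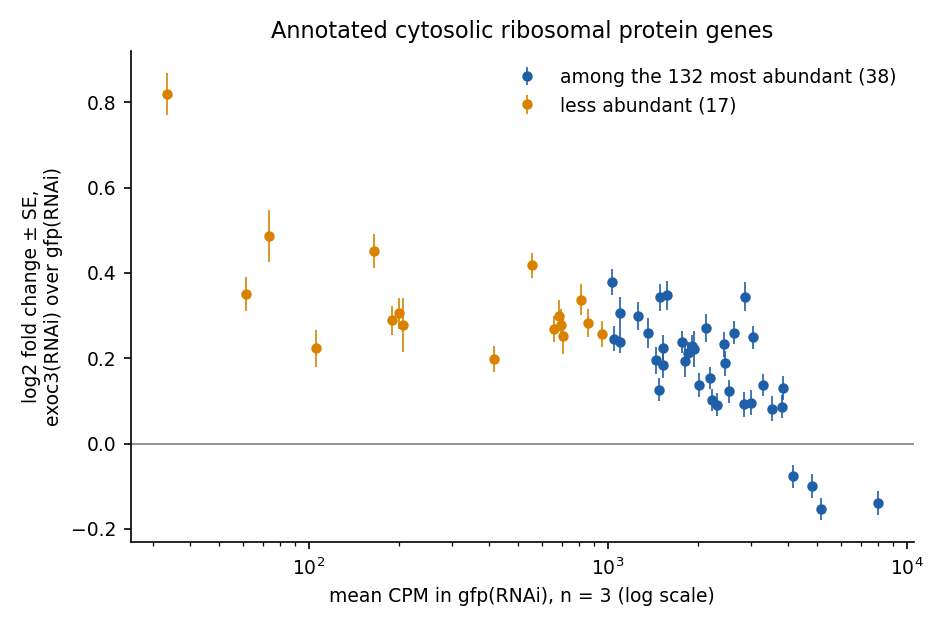
Log2 fold change (± SE) of 55 annotated cytosolic ribosomal protein genes, exoc3(RNAi) over gfp(RNAi), against the mean CPM of the 3 gfp(RNAi) libraries (log scale). The 38 genes of at least 1000 CPM are blue and the 17 below it orange. The 4 genes of highest CPM lie below 0, at -0.15 to -0.08, and the other 51 above it. The annotation mostly lists genes that changed, so unchanged genes could be missing.

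Genes that serve translation and are not annotated as ribosomal proteins did not move one way. Of 6 members 3 were higher, 2 lower and 1 not called. Among the described members 98.8% were called, and among all genes tested 53.0%. Elongation factor 2 (SMESG000042430.1), the factor that moves the ribosome by a codon, had 9568, 9572 and 9311 CPM in the exoc3(RNAi) libraries, against 11585, 11756 and 11621 CPM in the gfp(RNAi) libraries, a log2 fold change -0.35 (SE 0.03, edgeR adjusted p = 2.3e-07). PABPC4 (SMESG000058745.1), a cytoplasmic poly(A)-binding protein, had 5310.2, 5363 and 5445 CPM in the exoc3(RNAi) libraries, against 7936, 7861 and 7775 CPM in the gfp(RNAi) libraries, a log2 fold change -0.60 (SE 0.03, edgeR adjusted p = 2.4e-09). In both genes the exoc3(RNAi) libraries were all below the lowest gfp(RNAi) library, and PABPC4 was 11th among the 132 genes in exoc3(RNAi) and 5th in gfp(RNAi). EEF1A1A (SMESG000061099.1), which brings aminoacyl-tRNA to the ribosome, had 7556, 7619.6 and 7779 CPM in the exoc3(RNAi) libraries, against 7885, 7621 and 7642 CPM in the gfp(RNAi) libraries. The groups overlapped, and the change was not called, at -0.07 (SE 0.03) with an edgeR adjusted p of 0.060. The 3 higher genes were GNB2L1, the ribosome-bound scaffold also called RACK1, at 0.12 (SE 0.03), NACA, a chaperone of nascent chains, at 0.18 (SE 0.03), and EEF1B2, which recharges the factor eEF1A with GTP, at 0.21 (SE 0.03).

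Heat-shock proteins and chaperonins fell. Over all genes tested 27.1% were called lower, as were 35.4% of the 82 described members. Of 7 members grouped as chaperones, which leaves out NACA, 6 were lower and 1, a cyclophilin, was higher, with a median log2 fold change of -0.38. Together they held 3.20, 3.19 and 3.13% in the exoc3(RNAi) libraries, against 3.90, 3.91 and 3.92% in the gfp(RNAi) libraries. The most abundant transcript of all, HSPA8 (SMESG000040632.1), the constitutive Hsp70 chaperone of the cytosol, had 19078, 18944 and 18803 CPM in the exoc3(RNAi) libraries, against 23118, 23613 and 23639 CPM in the gfp(RNAi) libraries, a log2 fold change -0.36 (SE 0.02, edgeR adjusted p = 1.1e-07). It took 1.89% of all reads in exoc3(RNAi) and 2.35% in gfp(RNAi), and remained first in both groups. HSPD1 (SMESG000065325.1), the Hsp60 chaperonin of mitochondria, had 4274, 4291 and 4152 CPM in the exoc3(RNAi) libraries, against 5369, 5272 and 5261 CPM in the gfp(RNAi) libraries, a log2 fold change -0.38 (SE 0.03, edgeR adjusted p = 2.3e-07). HSPA9 (SMESG000056256.1), the Hsp70 of mitochondria, had 2819, 2853 and 2718 CPM in the exoc3(RNAi) libraries, against 4149, 4037 and 4027 CPM in the gfp(RNAi) libraries, a log2 fold change -0.59 (SE 0.03, edgeR adjusted p = 1.1e-08). Thus chaperones of the cytosol and of mitochondria were both lower, and no library of one group reached the range of the other.

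TCP1 (SMESG000067696.1) and CCT3 (SMESG000066978.1) are subunits of the chaperonin TRiC, which folds actin and tubulin. TCP1 had 790.1, 808 and 784 CPM in the exoc3(RNAi) libraries, against 1114, 1077 and 1084 CPM in the gfp(RNAi) libraries, a log2 fold change -0.51 (SE 0.03, edgeR adjusted p = 3.1e-08), and it was the lowest of the 132 genes in exoc3(RNAi). CCT3 was at -0.29 (SE 0.03). A second gene described as HSPA8 (SMESG000051815.1) had 1141, 1114 and 1037 CPM in the exoc3(RNAi) libraries, against 1408, 1438 and 1441 CPM in the gfp(RNAi) libraries, at -0.43 (SE 0.04). Exoc3(RNAi) replicate 3 was the lowest library for all 6 chaperones that fell. The cyclophilin (SMESG000006589.1), a prolyl isomerase, was at 0.09 (SE 0.03), and its call was lost without exoc3(RNAi) replicate 1 or 2 or gfp(RNAi) replicate 2 or 3 (edgeR adjusted p = 0.053 to 0.070).

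RNA-binding proteins and RNA helicases were lower in 10 and higher in 5 of 15 members. Lower calls made up 35.4% of the described members and 27.1% of all genes tested. The median log2 fold change of the 15 members was -0.17. The group's share of reads was 2.33 ± 0.00367% in exoc3(RNAi) and 2.50 ± 0.00946% in gfp(RNAi) (SD, n = 3 each). The KH domain gene KHD-1 (SMESG000070471.1) was the most abundant and had 3624, 3631 and 3631 CPM in the exoc3(RNAi) libraries, against 3988, 3921 and 3926 CPM in the gfp(RNAi) libraries, a log2 fold change -0.17 (SE 0.03, edgeR adjusted p = 9.5e-05). CG7878 (SMESG000011907.1), named after a Drosophila gene and holding KH and DEAD-box helicase domains, had 1617, 1644 and 1571 CPM in the exoc3(RNAi) libraries, against 2432, 2399 and 2397 CPM in the gfp(RNAi) libraries, a log2 fold change -0.63 (SE 0.03, edgeR adjusted p = 4.1e-09). This was the largest decrease among the 132 genes. DDX21 (SMESG000065959.1), a nucleolar helicase that takes part in ribosomal RNA processing in human cells, had 1078, 1058 and 1048 CPM in the exoc3(RNAi) libraries, against 1359, 1397 and 1401 CPM in the gfp(RNAi) libraries, a log2 fold change -0.44 (SE 0.03, edgeR adjusted p = 6.5e-08). A further DEAD-box gene was at -0.32 (SE 0.03), a gene with RRM and NTF2 domains at -0.32 (SE 0.03), a cold-shock domain gene at -0.40 (SE 0.03), LSM14A, a component of RNA granules, at -0.25 (SE 0.03), and EIF4AIII, a core subunit of the exon junction complex, at -0.20 (SE 0.03).

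The 5 that rose bind RNA but are no helicases. Heterogeneous nuclear ribonucleoproteins A2/B1 (SMESG000081075.1), which takes part in splicing and mRNA transport, had 1303, 1304 and 1366 CPM in the exoc3(RNAi) libraries, against 1032, 1026 and 1033 CPM in the gfp(RNAi) libraries, a log2 fold change 0.31 (SE 0.03, edgeR adjusted p = 1.1e-06). Heterogeneous nuclear ribonucleoprotein L was at 0.12 (SE 0.03), KHSRP, a KH domain protein, at 0.11 (SE 0.03), and 2 genes named after the Y-box gene cey-1 of Caenorhabditis at 0.17 (SE 0.03) and 0.13 (SE 0.03). The splicing factor SRSF5 and the cold-shock gene YPS were called lower at -0.09 (SE 0.03) and -0.07 (SE 0.03), although their libraries overlapped in CPM, and neither was called with library size alone (edgeR adjusted p = 0.40 and 0.49). The call of SRSF5 was lost without any 1 library other than exoc3(RNAi) replicate 3 (0.066 to 0.17), and that of YPS without exoc3(RNAi) replicate 1 or 2 or gfp(RNAi) replicate 1 or 3 (0.062 to 0.11).

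Of 5 chromatin and DNA synthesis genes 4 were higher, where 63.4% of the described members and 25.8% of all genes tested were. The putative histone H2A.1 (SMESG000015784.1) had 3243, 3219 and 3093 CPM in the exoc3(RNAi) libraries, against 2315, 2268 and 2301 CPM in the gfp(RNAi) libraries, a log2 fold change 0.42 (SE 0.03, edgeR adjusted p = 1.5e-07). HDAC2 (SMESG000060876.1), a histone deacetylase, had 2063, 2065 and 2064 CPM in the exoc3(RNAi) libraries, against 1852, 1830.5 and 1825 CPM in the gfp(RNAi) libraries, a log2 fold change 0.12 (SE 0.03, edgeR adjusted p = 0.0024). SET and Chromobox protein 5, a heterochromatin protein, were at 0.10 (SE 0.04) and 0.19 (SE 0.04), and the call of SET was lost without exoc3(RNAi) replicate 1 or 2 or gfp(RNAi) replicate 2 or 3 (edgeR adjusted p = 0.10 to 0.13). The large subunit of ribonucleotide reductase, RNRL (SMESG000029273.1), which makes deoxyribonucleotides, had 1444, 1430.0 and 1269 CPM in the exoc3(RNAi) libraries, against 1469, 1488 and 1486 CPM in the gfp(RNAi) libraries. It was called lower, at -0.15 (SE 0.04). Exoc3(RNAi) replicate 3 lay below replicates 1 and 2. Without it the log2 fold change was -0.09, and RNRL was still called lower (edgeR adjusted p = 0.00049). The gene was not called with library size alone (edgeR adjusted p = 0.054).

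Of 4 metabolic genes 2 were higher and 2 lower, so all were called, as were 98.8% of the described members and 53.0% of all genes tested. GAPDH (SMESG000052353.1), an enzyme of glycolysis, had 2846, 2894 and 3049 CPM in the exoc3(RNAi) libraries, against 2478, 2405 and 2387 CPM in the gfp(RNAi) libraries, a log2 fold change 0.22 (SE 0.03, edgeR adjusted p = 5.3e-05). IDH2, the isocitrate dehydrogenase of mitochondria, was at 0.27 (SE 0.03). ATP5A1 (SMESG000004897.1), the alpha subunit of mitochondrial ATP synthase, had 1958, 1942 and 1925 CPM in the exoc3(RNAi) libraries, against 2030.3, 2025 and 1995 CPM in the gfp(RNAi) libraries, a log2 fold change -0.11 (SE 0.03, edgeR adjusted p = 0.0048). ATP5B, its beta subunit, was at -0.07 (SE 0.03), with libraries that overlapped in CPM. Neither subunit was called with library size alone (edgeR adjusted p = 0.070 and 0.63), and ATP5B was not called without exoc3(RNAi) replicate 1 or 2 or gfp(RNAi) replicate 2 or 3 (0.077 to 0.12).

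Both cytoskeletal genes rose, where 63.4% of the described members and 25.8% of all genes tested were called higher. The profilin domain gene (SMESG000003538.1), whose domain binds actin monomers, had 1392, 1389.9 and 1482 CPM in the exoc3(RNAi) libraries, against 1043, 1006 and 1018 CPM in the gfp(RNAi) libraries, a log2 fold change 0.42 (SE 0.03, edgeR adjusted p = 2.2e-07). This was the largest increase among the 132 genes. The actin-depolymerizing factor ADF6 (SMESG000022423.1) had 1533, 1539.8 and 1629.8 CPM in the exoc3(RNAi) libraries, against 1347, 1289 and 1309 CPM in the gfp(RNAi) libraries, a log2 fold change 0.20 (SE 0.03, edgeR adjusted p = 0.00015). Exoc3(RNAi) replicate 3 was the highest library for both.

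Among 5 other described genes 4 fell, where 35.4% of all described members and 27.1% of all genes tested were called lower. GTPBP4 (SMESG000074998.1), a nucleolar GTPase needed in yeast for the large ribosomal subunit, had 931, 936 and 922 CPM in the exoc3(RNAi) libraries, against 1338, 1341 and 1331 CPM in the gfp(RNAi) libraries, a log2 fold change -0.58 (SE 0.03, edgeR adjusted p = 4.7e-09). CG9281 (SMESG000071613.1), which holds ABC transporter domains, had 926, 938 and 953 CPM in the exoc3(RNAi) libraries, against 1218, 1207 and 1198 CPM in the gfp(RNAi) libraries, a log2 fold change -0.42 (SE 0.03, edgeR adjusted p = 7.5e-08). A gene with an importin-beta domain was at -0.39 (SE 0.03) and CCAR1 at -0.41 (SE 0.03). The gene that rose (SMESG000034720.1) holds a Plectin/S10 domain and is also listed as neuropeptide precursor-18. Neither label was checked against its sequence. It may belong with the ribosomal protein genes, whose counts here leave it out. Its levels were 2076, 1969.6 and 2053 CPM in the exoc3(RNAi) libraries, against 1493, 1598 and 1651 CPM in the gfp(RNAi) libraries, a log2 fold change 0.31 (SE 0.04, edgeR adjusted p = 9.2e-06).

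**Figure D4:**
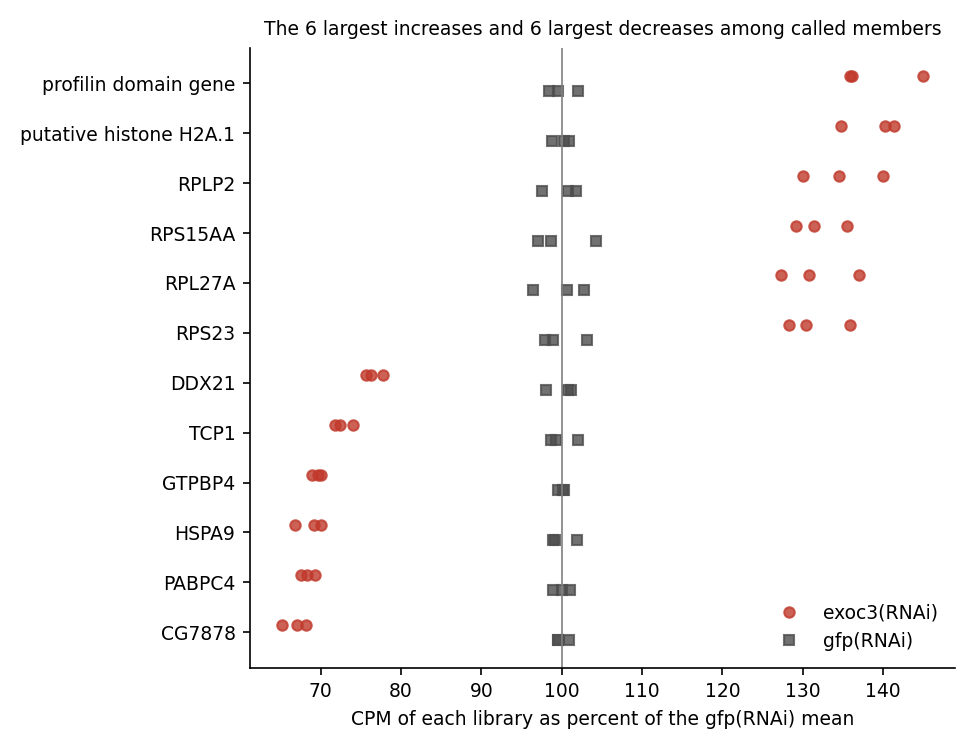
CPM of each library as percent of the gfp(RNAi) mean for the 6 largest increases and 6 largest decreases among called genes whose libraries did not overlap, with exoc3(RNAi) as red circles above gfp(RNAi) as grey squares. The profilin domain gene at the top has a log2 fold change of 0.42 and CG7878 at the bottom one of -0.63. The groups lie apart in each gene because genes without overlap were chosen.

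Of the 50 genes without a description 19 were higher, 3 lower and 28 not called, so 44% were called, where 53.0% of all genes tested were. The median size of the change was 0.07, compared with 0.22 in the 82 described genes. Descriptions come mostly from lists of changed genes, and 98.8% of the described genes were called, so this contrast follows in part from how the sets were formed. Their share of reads was 14.5, 14.4 and 14.5% in the exoc3(RNAi) libraries, against 13.8, 13.4 and 13.5% in the gfp(RNAi) libraries. The second most abundant transcript of all, SMESG000061164.1, had 16040.3, 16112 and 16502 CPM in the exoc3(RNAi) libraries, against 16122, 15779 and 15719 CPM in the gfp(RNAi) libraries. The groups overlapped, and its log2 fold change was -0.02 (SE 0.03). SMESG000059283.1 had 7935, 7972 and 8124 CPM in the exoc3(RNAi) libraries, against 8186, 7453 and 7527 CPM in the gfp(RNAi) libraries, with a log2 fold change of -0.00 (SE 0.04). SMESG000017700.1 was at -0.06 (SE 0.03), SMESG000058066.1 at -0.01 (SE 0.05) and SMESG000050810.1 at -0.03 (SE 0.03). Thus none of the 5 undescribed genes among the 10 most abundant passed the test, with edgeR adjusted p-values of 0.149 to 0.996. With library size alone 33 of the 50 genes were higher and 2 lower, and all 14 members called higher with library size alone and not with TMM were undescribed.

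Ranks among the 132 genes differed between the groups by a median of 5.5 places, and for 33 genes by more than 10. The largest move was that of CG7878, 89th in exoc3(RNAi) and 46th in gfp(RNAi). Of the 10 most abundant genes in gfp(RNAi) 9 were also among the first 10 in exoc3(RNAi). The mean in exoc3(RNAi) was still at least 1000 CPM for 125 of the 132 genes, and 7 lay below it. TCP1, CCT3, GTPBP4, CG9281, CCAR1, the importin-beta domain gene and EIF4AIII were these 7, and each was called lower. Their direction is fixed by how they were picked. In exoc3(RNAi) 136 genes reached the limit, smedwi-2, smedwi-3 and vasa-1 again left out. Of these 11 had been below it in gfp(RNAi), among them the ribosomal protein genes S27, L34a and the acidic protein P1. Just inside the limit in gfp(RNAi) lay the profilin domain gene, SMESG000022928.1 and SMESG000026176.1, with means of 1023, 1018 and 1005 CPM. Just outside lay a gene described as leucine-rich repeat and WD repeat-containing protein 1 (SMESG000061887.1), SMESG000003007.1 and X-linked inhibitor of apoptosis (SMESG000025700.1), with means of 999, 989 and 985 CPM.

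The members varied little between libraries of one group. The median coefficient of variation (CV, SD over mean) of CPM was 1.67% in exoc3(RNAi) and 1.67% in gfp(RNAi), compared with a counting error of 0.385% and 0.406% from the number of reads. In tested genes of 100 to under 1000 CPM the median CV was 3.11% in exoc3(RNAi) and 1.97% in gfp(RNAi), with counting errors of about 1.32%. The CV exceeded 5% for 4 members in exoc3(RNAi) and 8 in gfp(RNAi). It was larger in exoc3(RNAi) for 64 of 132 members, and for 1094 of the 1611 genes in the class below.

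In each group 1 library lay apart. For 94 of the 132 genes exoc3(RNAi) replicate 3 was the library farthest from the median of its group, and for 89 genes gfp(RNAi) replicate 1 was. Without exoc3(RNAi) replicate 3 the median CV in exoc3(RNAi) was 0.778%, and without gfp(RNAi) replicate 1 that in gfp(RNAi) was 0.654%. The median absolute log2 ratio between libraries over the 132 genes was 0.02 to 0.04 within exoc3(RNAi), 0.01 to 0.04 within gfp(RNAi), and 0.16 to 0.23 between the groups. Replicate 3 of exoc3(RNAi) also had the highest level of Smed-exoc3 in its group.

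The most variable member within gfp(RNAi) was SMESG000058066.1, which had 6495, 6412 and 6807 CPM in the exoc3(RNAi) libraries, against 7040.0, 6007 and 6119.6 CPM in the gfp(RNAi) libraries. Its CV was 3.17% in exoc3(RNAi) and 8.87% in gfp(RNAi), with replicate 1 above the others. SMESG000024345.1 followed with a CV of 3.74% in exoc3(RNAi) and 5.75% in gfp(RNAi). The lowest CVs in gfp(RNAi) were those of the ribosomal protein gene L12 (SMESG000006898.1), which had 2242, 2201 and 2248 CPM in the exoc3(RNAi) libraries, against 1854, 1857 and 1860.4 CPM in the gfp(RNAi) libraries, and heterogeneous nuclear ribonucleoprotein L (SMESG000005298.1), which had 1409, 1423 and 1386 CPM in the exoc3(RNAi) libraries, against 1252, 1255 and 1248 CPM in the gfp(RNAi) libraries. Their CVs in gfp(RNAi), 0.160% and 0.289%, lay below the counting error of 0.406% and 0.495%, so their order by spread is within counting error. Both genes were higher in exoc3(RNAi), at 0.21 (SE 0.03) and 0.12 (SE 0.03). The largest spread within exoc3(RNAi) was that of SMESG000022928.1, named here for its spread, which had 1019, 1014 and 1242 CPM in the exoc3(RNAi) libraries, against 1011, 1022 and 1021 CPM in the gfp(RNAi) libraries. Replicate 3 was high, the CV was 12.0% in exoc3(RNAi) and 0.587% in gfp(RNAi), and the gene was not called (edgeR adjusted p = 0.51).

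**Figure D5:**
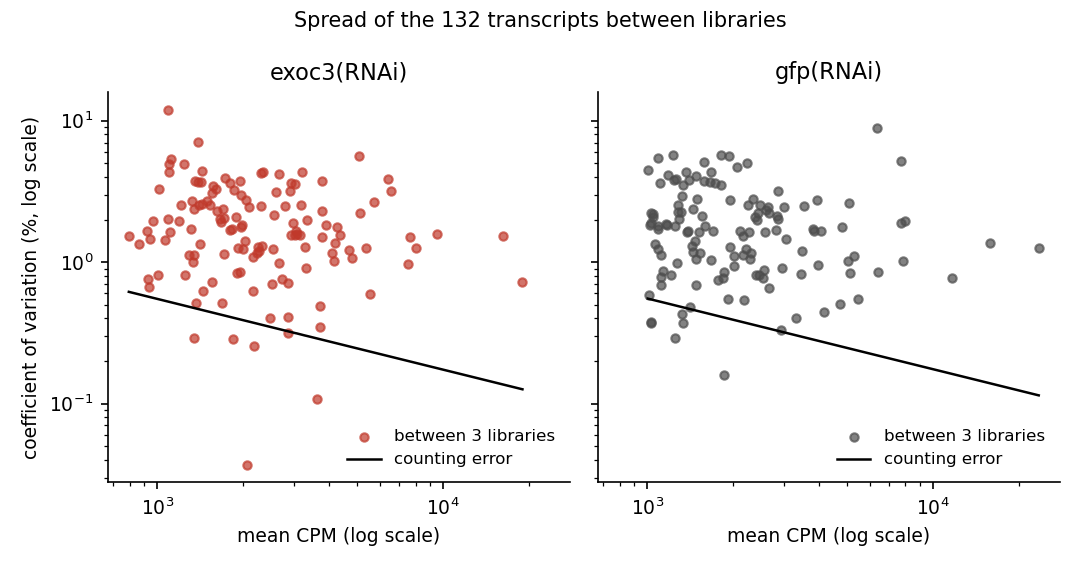
Coefficient of variation of CPM over 3 libraries (percent, log scale) against mean CPM (log scale) for each of the 132 genes, in exoc3(RNAi) on the left and gfp(RNAi) on the right. Black lines give the counting error of the same reads. Nearly all genes lie above the line, and 6 in each group lie below it.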

How the data were processed

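X1 cells of 3 exoc3(RNAi) and 3 gfp(RNAi) preparations were sequenced, and the sample titles gave group and replicate number. According to the study's methods and the submitters' processing notes, the authors made stranded poly(A) mRNA libraries, extracted single-end reads with bcl2fastq 1.8.4, aligned them with STAR 2.7.2b to the dd_Smes_g4 genome and assigned them to genes by strand with featureCounts 1.6.5. The authors did not count reads that aligned to more than one place or overlapped more than one gene, which lowers genes with close copies. The deposited values are raw counts per gene, whole numbers without normalisation, with no row for unassigned reads. Totals were 28897363 to 37525894 reads per library.

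CPM were counts divided by the total of the library. Counts were tested in R 4.3.3 with edgeR 4.0.16 (filterByExpr with a minimum count of 10, TMM factors, quasi-likelihood F test without covariates, two-sided, Benjamini-Hochberg over 14700 genes). An adjusted p under 0.05 made a call. The SE is the size of the log2 fold change divided by the square root of F. The step was tested on simulated data. Because the study's own test was that of DESeq2, DESeq2 1.42.0 was run as an alternative. The exact permutation test of 3 against 3 libraries cannot give a p below 0.1, so shares are given per library without a test. Each edgeR p-value weighs the difference between the groups against the spread between these libraries, which the fit estimates with information from other genes. A chi-square comparison of counts within groups gave 1.34 to 8.26 per degree of freedom, so no library was a copy of another. It was 1.37 for exoc3(RNAi) replicates 1 and 2 and 1.34 for gfp(RNAi) replicates 2 and 3, near counting error alone. Values this low cannot tell separate preparations from repeated libraries of the same preparation, and the study describes biological replicates.

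The members and the gene lists were chosen with earlier results of these data known. Genes named are the 10 of highest gfp(RNAi) level, the 2 highest described members of each role, the 6 largest increases and 6 largest decreases among called members without overlap, the 2 of highest and 2 of lowest spread in gfp(RNAi), the 3 on either side of the limit, and the 3 largest falls below it. Others are named as the few of a count. Role groups were assigned by hand from names and domains in the study's supplementary tables, which cover 2057 identifiers. Transcript lengths, coordinates and sequences were not analysed here.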

Additional observations from a re-analysis of the deposited data

How the results depend on the processing

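The counts of 71 higher and 32 lower members stayed within 1.5 times under other scaling, filters, DESeq2, an adjusted p under 0.01 and the replicate block, and none of these alternatives called a member in the direction opposite to that reported. With library size alone 85 were higher and 24 lower, and the median over all genes was 0.07 rather than 0.02. Leaving out each library in turn gave 63 to 78 higher, 27 to 33 lower and a share difference of 0.939 to 1.27 percentage points, and medians of 0.08 to 0.12. Of the called members 14, each with a change of at most 0.12 in size, lost their call without at least 1 library. Smed-exoc3 stayed at -1.20 to -0.96. The fold above 1.2 moved the counts most. It left 6 higher and 16 lower members. Ribosomal members kept 4 higher and 0 lower. Translation genes kept 0 higher and 2 lower, chaperones 0 and 5, RNA-binding genes 0 and 5, and other described genes 0 and 4. Chromatin genes kept 1 higher and 0 lower, cytoskeletal genes 1 and 0, and metabolic and undescribed genes 0 and 0. Of all 55 ribosomal protein genes 10 were higher and 0 lower. With library size alone, as with the filter of 10 CPM in 3 libraries, lower ribosomal genes numbered 2 and higher undescribed genes 33. With library size alone 0 chromatin and 0 metabolic genes were lower, and 1 metabolic gene was lower with the filter of 10 CPM, with no filter and with the replicate block. At an adjusted p under 0.01 0 chaperones were higher, 0 chromatin genes lower and 1 metabolic gene lower. Without 1 library at a time higher chaperones numbered 0 to 1 and lower metabolic genes 1 to 2. The cause of these moves was not tested.

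The choice of members moved the values too. At a limit of 500 CPM the median log2 fold change of 292 genes was -0.014, 40.1% were lower and the share difference was 0.594 points. At 2000 CPM, with 61 genes, the difference was 0.102 points and the groups overlapped. Members chosen on the exoc3(RNAi) mean gave 1.44 points. Against the TMM effective library size the difference reversed to -0.239 points. Members chosen on 1 gfp(RNAi) library and compared without it gave medians of 0.08 to 0.12 and differences of 0.923 to 1.29 points.

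Same-numbered libraries did not deviate together, with correlations of -0.01, 0.01 and -0.03, so the numbers were not taken as pairs. With the replicate block 71 members were higher and 29 lower, and 7642 genes were called in all, against 7784 without it. Of the 26 called members among the 35 named by rule, 25 kept their direction and call in every setting other than the fold of 1.2. The exception was ATP5A1 with library size alone. Counting error exceeded the spread between libraries for 6 of 132 members in each group, so depth limits the order of the least variable members.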
